A study of Macaca mulatta with 9 samples.

Results

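A set of 7 genes used as markers of oviduct and rete epithelium were followed in rhesus monkey ovaries, namely EHF, EPCAM, PAX8, TEKT1, FOXJ1, OVGP1 and ELF3. They were chosen by symbol, and 4 of them were picked because they stood out in part of the young ovaries, so their levels there are given as a description and carry no test. The array annotation gave a probe set to 6 of the 7 genes, among 14132 genes with a symbol, and these 6 genes had 15 of the 52766 probe sets. ELF3, an epithelial transcription factor of the ETS family, had none and was not analysed here.

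The study asked how ovarian gene expression differs with age. RNA from part of 1 ovary of each monkey was hybridized to 1 one-colour Affymetrix array, with 3 monkeys in each of 3 age groups. Young monkeys (3 to 4 years) were cycling and had never bred, middle-aged monkeys (7 to 8 years) were reproducing well, and old monkeys (18 to 19 years) no longer could. Young and middle-aged ovaries were taken near proestrus, and all monkeys were perfused before the ovaries were frozen. An array is called here by its age group and replicate number, as in young 3, and each replicate is a different monkey. Values are intensities on a linear scale, and a gene with several probe sets is represented by the one with the highest mean over the 9 arrays.

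The oviduct is lined by an epithelium of ciliated cells, which move fluid and gametes with motile cilia, and secretory cells, which release mucins, protease inhibitors and oviductal glycoprotein. The rete ovarii is a set of epithelial tubules near the hilum of the ovary, a remnant of the embryonic mesonephros. EHF and EPCAM are general to such epithelia, PAX8 marks epithelium of Mullerian duct and mesonephric origin, FOXJ1 and TEKT1 belong to the motile cilium, and OVGP1 is the secreted oviductal glycoprotein.

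Array medians lay between 24.2 and 25.8, and first quartiles between 9.001 and 9.574. No detection calls were at hand, so a value below the median of its array is described as dim. All 8 granulosa cell genes and all 9 stromal fibroblast genes with a probe set were above the array median on at least 1 array, as were 7 of 9 oocyte genes. Labelling spike-in probe sets stood 0.62 (log2) above their mean over the arrays in young 3 and 0.76 above it in old 3, against -0.39 to 0.13 on the other arrays. Their part in the results below was not tested.

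EHF, an epithelial transcription factor of the ETS family, was high in a single ovary. Its brightest probe set read 10.3, 8.00 and 1642 in young 1, 2 and 3, then 7.12, 11.0 and 7.28 in the middle-aged ovaries, and 5.95, 16.8 and 12.1 in the old ovaries. Young 3 was 97.7-fold above the next array, old 2, and it was the only array on which EHF exceeded the array median. Among the 1718 genes whose highest value was in young 3, EHF had the largest excess over the next array. A second EHF probe set read 207 in young 3 and at most 7.09 elsewhere, a 29.3-fold excess. The other two EHF probe sets were dim, at 14.4 and 15.3 in young 3, and they too were highest there, by 1.28-fold and 1.44-fold.

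EPCAM, an epithelial cell adhesion molecule with 1 probe set, was high in all young ovaries and highest in the same one. It read 102, 101 and 849 in young 1, 2 and 3. The middle-aged ovaries read 25.9, 35.1 and 36.7, and the old ovaries 26.7, 26.9 and 31.7. Unlike EHF, EPCAM separated the young ovaries from the other 6 without overlap, and young 3 was 8.31-fold above young 1, the next array.

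PAX8, a transcription factor kept in the epithelium of the oviduct and kidney tubules, was highest in young 3 and second highest in old 3. It read 32.02, 31.3 and 430 in young 1, 2 and 3, then 50.4, 31.3 and 34.2 in the middle-aged ovaries and 49.1, 45.7 and 146 in the old ovaries. The excess of young 3 over old 3 was 2.94-fold. These values come from 1 of 6 PAX8 probe sets, and none of the other 5 was highest in young 3. The next brightest was highest in middle-aged 3, at 62.0, and read 55.7 in young 3. The remaining 4 had their highest values, 48.5, 15.4, 8.96 and 10.4, in middle-aged 1, middle-aged 1, young 1 and old 3. The last of these, a dim probe set, read 9.56 in young 3 and 5.56 to 8.56 in the other 7 ovaries, so its top ovaries were also old 3 and young 3. The size of the PAX8 excess in young 3 thus comes from 1 probe set.

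The pair of ciliary genes moved less. TEKT1, a tektin that builds filaments of the ciliary axoneme, read 15.2, 10.8 and 31.0 in young 1, 2 and 3, then 10.7, 11.4 and 10.7 in the middle-aged ovaries and 12.6, 12.2 and 12.6 in the old ovaries. Young 3 was 2.04-fold above young 1 and was the only array with TEKT1 above the array median. FOXJ1, the transcription factor that directs the formation of motile cilia, read 31.5, 29.6 and 39.5 in the young ovaries, 28.9, 24.4 and 24.98 in the middle-aged ovaries, and 25.1, 31.2 and 25.6 in the old ovaries. It was again highest in young 3, but by 1.26-fold, and its whole range over the 9 arrays was 1.62-fold. TEKT1 and FOXJ1 had 1 probe set each.

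OVGP1, the glycoprotein secreted by oviduct epithelium, was high in a different ovary. It read 35.1, 28.3 and 50.5 in the young ovaries, then 29.0, 28.5 and 40.2 in the middle-aged ovaries and 27.5, 578 and 83.8 in the old ovaries. Old 2 was 6.89-fold above old 3, and young 3 was next. Among the 1643 genes that were highest in old 2, OVGP1 ranked 6th by its excess over the next array. A second OVGP1 probe set read 4.99 to 6.43 and was dim on every array.

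Of the 6 measured genes, 5 were thus highest in young 3, where 12.2% of all genes were highest. Of the 6, 4 were at least 2-fold above every other array there, a limit that 0.8% of all genes passed. That share of the members reflects how they were picked and is not a result about them. The member nearest the limit from inside was TEKT1, at 2.04-fold, and the next, at 1.26-fold and well outside it, was FOXJ1. The same limit in old 2 was passed by OVGP1 alone of the 6 genes and by 0.368% of all genes, while 11.6% of all genes were highest in old 2. With 4 members picked for standing out in young ovaries, the peaks in young 3 cannot bear out the name given to the set. FOXJ1 also peaked in young 3, by 1.26-fold, while OVGP1 peaked in old 2.

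**Figure D1:**
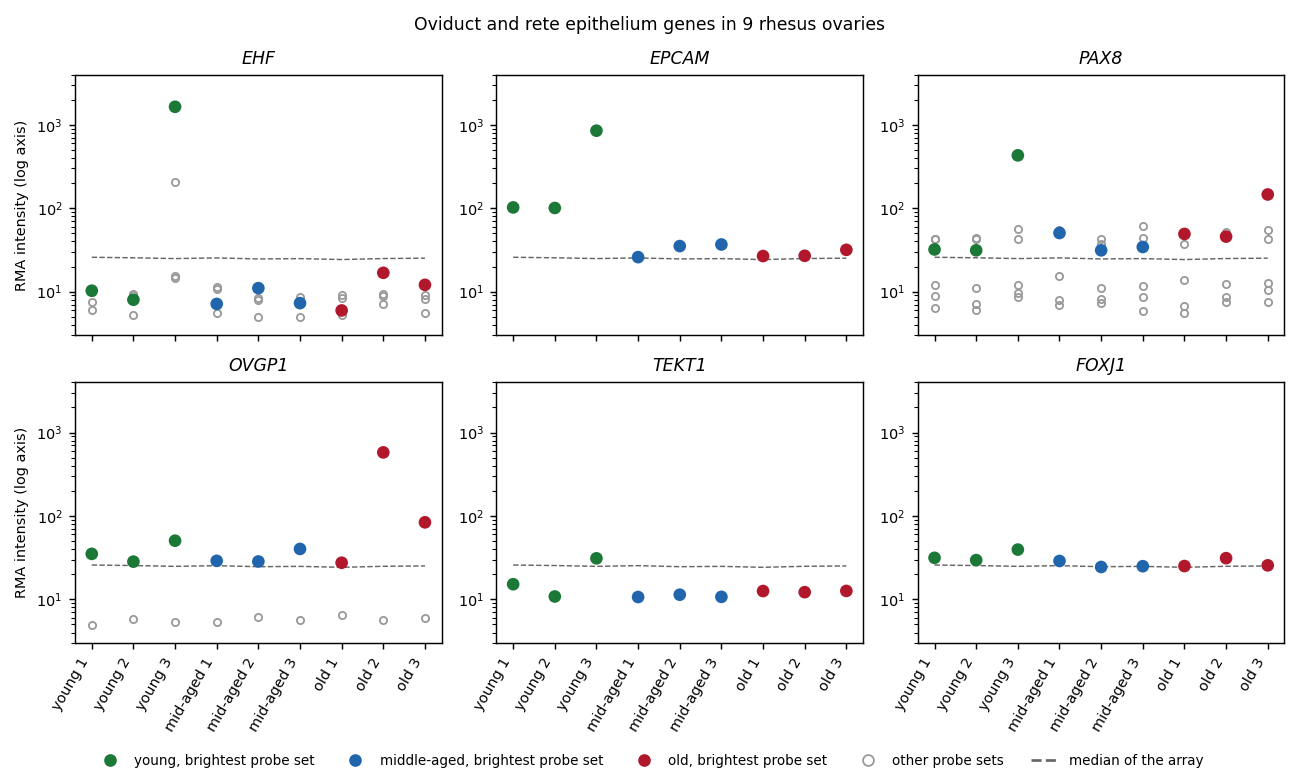
Intensity (log axis) of each measured gene in the 9 ovaries, with filled points for the brightest probe set coloured by age group, open points for other probe sets and a dashed line for the median of each array. EHF, EPCAM, PAX8, TEKT1 and FOXJ1 peak in young 3, at 1642, 849, 430, 31.0 and 39.5, while OVGP1 peaks in old 2, at 578.

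The age group means followed these single ovaries. EHF averaged 553 ± 943 in young, 8.47 ± 2.20 in middle-aged and 11.6 ± 5.44 in old ovaries (SD, n = 3 each), so that no neighbouring pair in the order young, old, middle-aged differed by more than the larger SD. On the log2 scale, the EHF difference was -2.27 for old minus young, and 0.23 without young 3. The sign of the EHF difference with age therefore depended on 1 monkey.

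EPCAM averaged 351 ± 432 in young, 32.6 ± 5.85 in middle-aged and 28.4 ± 2.83 in old ovaries, with an SD among young ovaries larger than the difference of the means. Its log2 difference was -2.86 for old minus young and -2.68 for middle-aged minus young. Without young 3 these were -1.84 and -1.65, so the direction held with the remaining young ovaries, which averaged 101. Old and middle-aged ovaries differed by -0.19 on the log2 scale, and their values overlapped.

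PAX8 averaged 164 ± 230, 38.6 ± 10.3 and 80.2 ± 56.9 in young, middle-aged and old ovaries. Its log2 difference for old minus young was -0.13, and 1.12 without young 3. TEKT1 averaged 19.0 ± 10.6, 10.9 ± 0.396 and 12.5 ± 0.235 in young, middle-aged and old ovaries, and its log2 difference for old minus young was -0.47, or -0.04 without young 3. FOXJ1 averaged 33.5 ± 5.28, 26.1 ± 2.40 and 27.3 ± 3.39, with a log2 difference of -0.29, or -0.17 without young 3. For PAX8, neighbouring groups differed by less than the larger SD. The highest middle-aged FOXJ1 value (28.9) was below the lowest young one (29.6), and all old TEKT1 values (12.2 to 12.6) were above the middle-aged ones (10.7 to 11.4). The other neighbouring groups of these genes overlapped or differed by less than the larger SD.

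OVGP1 averaged 38.0 ± 11.4 in young, 32.5 ± 6.65 in middle-aged and 230 ± 303 in old ovaries. The log2 difference was 1.58 for old minus young and 1.78 for old minus middle-aged. One old ovary, old 1, had the lowest OVGP1 value of all 9, so old ovaries overlapped with both younger groups. Without old 2 the log2 difference for old minus young was 0.38, and for old minus middle-aged it was 0.58. In whole tissue, fewer epithelial cells and less RNA per cell cannot be told apart for any of these genes.

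Whether ciliated and secretory genes agree was examined with lists that hold none of the 7 genes. The lists were written with earlier results of these data known. Their shares in young 3 therefore do not rest on an independent choice of genes and are given as a description. The secretory list had a probe set for 12 of 17 genes, and 8 of the 12 were highest in young 3 (66.7%, against 12.2% of all genes). Of the 12, 6 were at least 2-fold above every other array there (50%, against 0.8%). The median gene of the list read 2.32-fold above the highest of the other arrays in young 3, and the median of all genes was 0.768-fold.

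MUC1, a membrane mucin, read 241 in young 3 and 11.3 to 24.9 in the other 8 ovaries. All 4 of its probe sets showed the excess, by 4.47-fold to 9.65-fold. KRT7, a keratin of simple glandular epithelia, read 325 in young 3 and 19.7 to 34.9 elsewhere. CRISP3, a secreted cysteine-rich protein, read 147 in young 3 and 4.78 to 14.2 elsewhere, a 10.3-fold excess. KRT23, another keratin, read 24.99 in young 3 and 4.84 to 7.22 elsewhere.

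The 2 secreted protease inhibitor family members of the list were bright in every ovary. WFDC2 read 2714 in young 3 and 102 to 549 elsewhere, a 4.95-fold excess, although its other 2 probe sets were dim and did not follow. SLPI, which inhibits serine proteases of leukocytes, read 6118 in young 3 and 239 to 1346 elsewhere.

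LCN2, an iron-scavenging lipocalin that is also made by neutrophils, did not follow the list. It read 23.4, 39.9 and 686 in young 1, 2 and 3, then 89.1, 49.3 and 11.3 in the middle-aged ovaries and 2793, 88.7 and 403 in the old ovaries. It was highest in old 1 and next in young 3. PIGR, MMP7 and SPDEF were also highest elsewhere, in old 3, old 1 and young 1. No secretory gene was highest in old 2, the ovary with the OVGP1 peak, though old 2 was the next array after young 3 for MUC1, KRT23 and CRISP3.

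The motile cilium list had a probe set for 45 of 69 genes. In young 3, 19 of the 45 were highest (42.2%, against 12.2% of all genes), but only 3 reached a 2-fold excess (6.67%, against 0.8%). CAPSL, a calcium-binding protein related to calcyphosine, read 124 in young 3 and 6.40 to 10.9 elsewhere, an 11.4-fold excess. DYDC2 read 32.4 in young 3 and 9.07 to 12.9 elsewhere, and RSPH4A, a radial spoke protein of the axoneme, read 10.7 there and 4.28 to 5.18 elsewhere. The RSPH4A value was below the median of its array.

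The median cilium gene read 0.96 of the highest other array in young 3. Many cilium genes were dim, and 25 of the 45 exceeded the median of the array on their highest array. Of the 16 whose mean was above the median of all probe sets, 5 were highest in young 3 and none was 2-fold above the rest. Of the 8 secretory genes brighter than that median, 5 were highest in young 3 and 3 were at least 2-fold above the rest. Among all such brighter genes, 12.6% were highest in young 3 and 0.642% passed the 2-fold limit.

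Some cilium genes were highest in other ovaries. IQCG, a calmodulin-interacting protein needed for sperm flagella in mice, read 1205, 2519 and 307 in young 1, 2 and 3, then 1171, 479 and 134 in the middle-aged ovaries and 83.1, 136 and 116 in the old ovaries. DNAH11, an outer arm dynein heavy chain, read 130, 203 and 38.5 in the young ovaries, 20.2, 29.7 and 28.8 in the middle-aged ovaries, and 69.2, 50.4 and 16.8 in the old ovaries. Both were highest in young 2 and lower in young 3 than in the other young ovaries. Of the 8 measured granulosa cell genes, 4 were highest in old 1, 1 in middle-aged 2 and 3 in young 2. Of these 3, HSD17B1 read 1371.5, 3972 and 322 in the young ovaries, and 2434, 504 and 132 in the middle-aged ones. In the old ovaries HSD17B1 read 127, 144 and 133. The part of granulosa cells in the IQCG and DNAH11 values was not tested. CCDC114, which docks the outer dynein arms, was highest in old 3, at 808, against 67.8 to 288 in the other 8 ovaries.

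None of the 7 measured regulators of multiciliated cells was 2-fold above the rest in young 3, and 3 of them were highest there. CCNO, a cyclin-like protein needed to multiply basal bodies, read 90.3, 140 and 198 in the young ovaries, 89.2, 90.3 and 129 in the middle-aged ovaries, and 56.8, 55.7 and 41.0 in the old ovaries. It was lowest in the old ovaries without overlap. MYB, which acts early in multiciliated cells and also in blood progenitors, read 15.1, 20.9 and 37.0 in the young ovaries, and 12.2, 11.2 and 13.6 in the middle-aged ones. In the old ovaries MYB read 7.71, 10.5 and 11.3. CDC20B and FOXN4 stayed within 21.2 to 32.7 and 25.8 to 35.1 over the 9 ovaries.

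**Figure D2:**
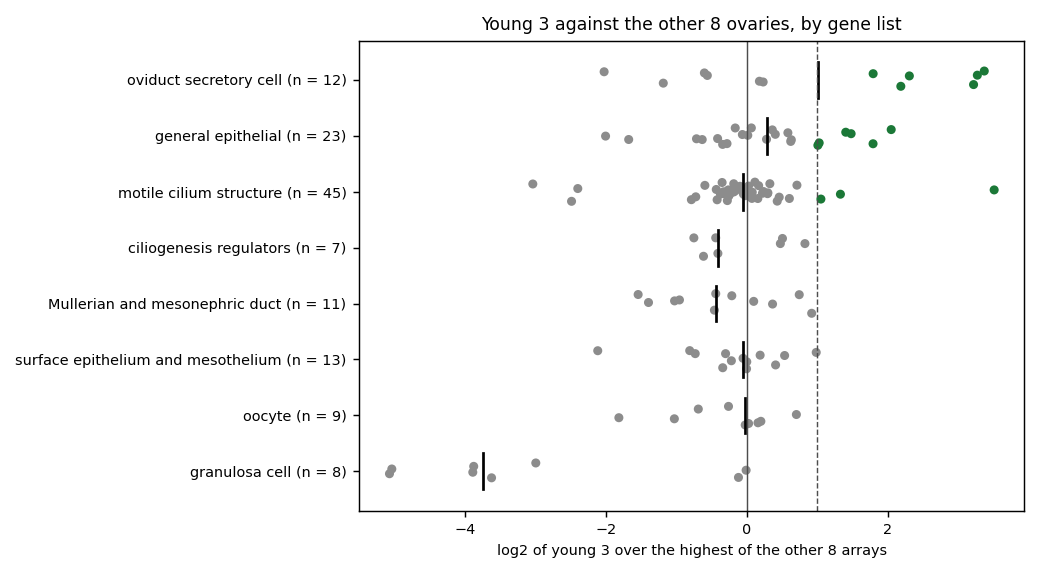
Log2 of the intensity in young 3 over the highest of the other 8 ovaries, 1 point per gene and 1 line of points per gene list. In all, 6 of 12 secretory genes and 6 of 23 general epithelial genes lie at or beyond the 2-fold limit, against 3 of 45 cilium genes and none of the ciliogenesis regulators.

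General epithelial genes were also high in young 3. Of the 23 with a probe set, 14 were highest there (60.9%) and 6 had a 2-fold excess (26.1%). CLDN7, a tight junction protein, read 289 in young 3 and 34.3 to 70.0 elsewhere. RAB25, a GTPase of epithelial membrane recycling, read 189 in young 3 and 14.5 to 54.7 elsewhere. CLDN4, CD24, KRT19 and OVOL2 had excesses of 2.79-fold, 2.65-fold, 2.04-fold and 2.01-fold. CDH1, the epithelial cadherin, read 12.4 to 15.5 over the 9 ovaries and was below the array median in all of them.

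Other epithelial genes took other orders. CLDN3, a second tight junction claudin, read 83.1, 72.8 and 552 in the young ovaries, 83.1, 67.7 and 41.1 in the middle-aged ovaries, and 857, 116 and 83.1 in the old ovaries. Its highest ovaries, old 1 and young 3, were those of LCN2. KRT8, a keratin of simple epithelia, read 355, 120 and 292 in the young ovaries, 130, 62.2 and 38.3 in the middle-aged ovaries, and 35.7, 43.0 and 47.7 in the old ovaries. ST14, a membrane serine protease, read 576 in young 3, below young 1 (1784) and young 2 (2278).

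The duct list of 11 measured Mullerian and mesonephric genes had 4 genes highest in young 3 and none with a 2-fold excess. SOX17, a transcription factor present in oviduct epithelium and in endothelium, read 53.9, 41.1 and 620 in the young ovaries, 51.5, 75.4 and 139 in the middle-aged ovaries, and 328, 58.5 and 186 in the old ovaries. EMX2, a transcription factor of urogenital development, read 278, 300 and 668 in the young ovaries, 295, 309 and 337 in the middle-aged ovaries, and 66.1, 166 and 399 in the old ovaries. SOX17 and EMX2 both peaked in young 3, by 1.89-fold and 1.67-fold. HOXA9 and HOXA10, which pattern the Mullerian tract, were highest in old 3, at 285 and 115. PAX2, the close relative of PAX8, read 5.996 to 8.33 and was dim in all 9 ovaries.

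The ovary has a surface epithelium of its own, and some of its markers were high in the young ovaries. Of 13 measured surface epithelium and mesothelium genes, 4 were highest in young 3 and none had a 2-fold excess, and the median gene read 0.963 of the highest other array. The list's median level in young 3 was 1.18 (log2, relative to each gene's mean), against 0.16 and 0.32 in young 1 and 2 and -0.59 to 0.01 in the other 6 ovaries. The summed intensity of the 13 genes was 6645 to 7845 in young, 2833 to 3993 in middle-aged and 1833 to 5040 in old ovaries, and it was nearly equal in young 3 (7845) and young 2 (7797). MSLN, or mesothelin, read 255, 338 and 669 in young 1, 2 and 3, then 41.3, 80.3 and 28.4 in the middle-aged ovaries and 91.6, 126 and 130 in the old ovaries. UPK1B, a uroplakin, read 196, 287 and 415 in the young ovaries, 48.3, 84.5 and 19.1 in the middle-aged ovaries, and 27.3, 61.8 and 42.9 in the old ovaries. MSLN and UPK1B were higher in every young ovary than in the other 6. GPM6A, the most variable gene of the list, was not. It read 511, 107 and 291 in the young ovaries, 117, 88.3 and 31.5 in the middle-aged ovaries, and 10.7, 43.8 and 196 in the old ovaries. ITLN1, an intelectin, overlapped between old and young ovaries, with 2671 in old 3 and 2413 in young 3. LHX9, a gonadal transcription factor, read 124 to 144 in the young ovaries and was highest in old 2, at 541. The part of surface epithelium in the levels of EHF, EPCAM and the secretory genes was not tested.

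Across the 9 ovaries, the median level of the cilium list was -0.02, -0.01 and 0.13 (log2, relative to each gene's mean) in the young ovaries, -0.05, -0.05 and -0.07 in the middle-aged ovaries, and -0.10, 0.02 and 0.01 in the old ovaries. That of the secretory list was -0.30, -0.37 and 2.23 in the young ovaries, -0.33, -0.36 and -0.31 in the middle-aged ovaries, and -0.08, 0.09 and -0.28 in the old ovaries. Both lists were highest in young 3, but the cilium list spanned a far smaller range.

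The 2 list medians had a Pearson r of 0.824 (two-sided exact permutation p = 0.0415, 9 ovaries) and a Spearman rho of 0.427 (exact permutation p = 0.254). This was the only relation tested, so the adjusted values equal these. The lists were written with earlier results of these data known, so these p-values do not rest on an independent choice of genes. Without old 1 and young 3, the ovaries farthest from the median of the cilium list, r was 0.602 (exact permutation p = 0.137). Without young 3 alone, r was 0.145 (exact permutation p = 0.722), so the relation rested on that ovary. With the age group means subtracted, r was 0.775. No p is given for it, since pairing ovaries freely across groups is not exact for values centred within groups. With the brighter genes alone, r was 0.0983 (exact permutation p = 0.944).

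**Figure D3:**
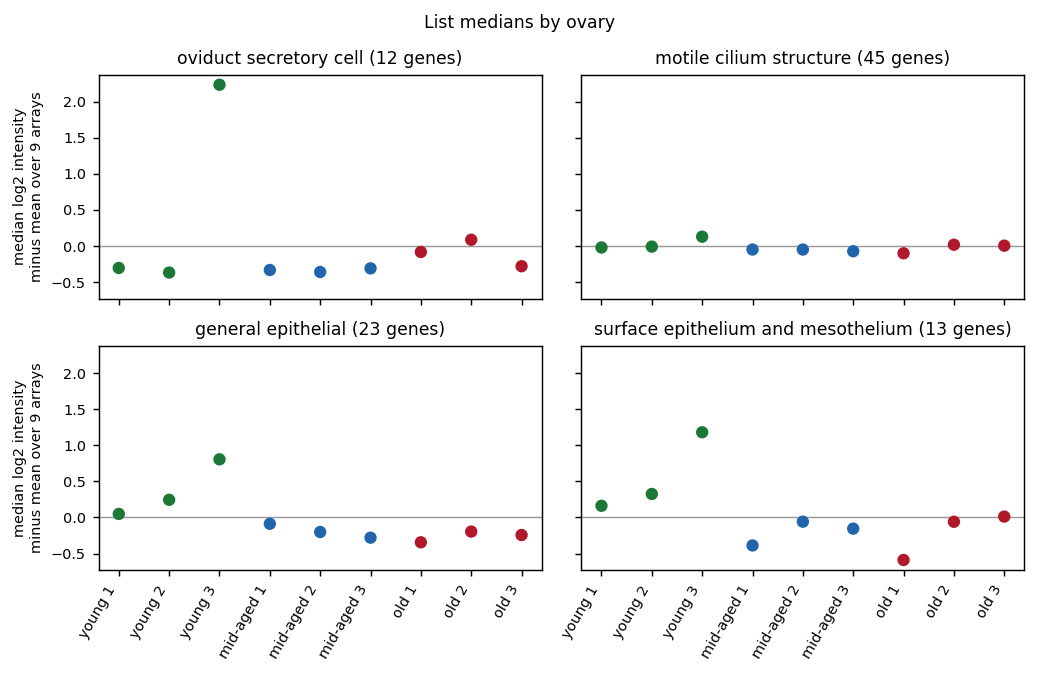
Median log2 intensity of each gene list in the 9 ovaries, after subtraction of the gene's 9-ovary mean and coloured by age group. The secretory list reaches 2.23 in young 3 and lies between -0.37 and 0.09 elsewhere, while the cilium list stays between -0.10 and 0.13.

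Between age groups, limma (Benjamini-Hochberg adjusted p under 0.05 and at least 1.5-fold) called 0.155% of all probe sets for old against young ovaries, 0.0341% for old against middle-aged and 0.0019% for middle-aged against young. None of the 111 measured genes of the 6 epithelial and ciliary lists was called by limma in any of these comparisons. The study's own test, SAM with a 1.5-fold minimum, did list some of them as lower in old than in young ovaries. Among these were DSP, KRT8, MSLN, UPK1B, BNC1 and CCNO, and also IQCG of the cilium list, which the study entered under a LOC symbol. At an unadjusted p under 0.05, limma had 26 of the 111 lower and 3 higher in old than in young ovaries, 8 lower and 4 higher in old than in middle-aged ovaries, and 21 lower and none higher in middle-aged than in young ovaries. For the 3 comparisons in that order, 23.4%, 7.21% and 18.9% of the list genes were thus lower, against 7.89%, 4.79% and 1.73% of all probe sets, and 5.58%, 3.08% and 1.45% of all probe sets were higher. The shares for old against middle-aged ovaries lay near those of all probe sets. The list genes are counted by their brightest probe set alone. All probe sets also include dimmer ones and those without a symbol, so the shares do not have the same basis. The smallest limma adjusted p of the list genes was 0.074, for DSP, a desmosome protein. DSP read 138, 266 and 186 in the old ovaries, against 1154, 2371 and 1426 in the young ones.

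The list medians for old against young ovaries were -0.59 (log2) for secretory, -0.70 for general epithelial, -0.96 for surface epithelium and mesothelium, -0.07 for cilium, -0.12 for ciliogenesis regulator and 0.04 for duct genes, against 0.01 over all probe sets. Negative differences were seen in 9 of 12 secretory, 20 of 23 epithelial, 11 of 13 surface and 31 of 45 cilium genes. Without young 3 the secretory median was 0.17, with 3 of 12 genes negative, and the epithelial and surface medians were -0.46 and -0.78. The surface median was -0.50 without old 1, and the secretory median was -0.36 without old 1, -1.13 without young 1 and -1.07 without young 2. For old against middle-aged ovaries, the medians were 0.17 for secretory, -0.11 for epithelial and 0.04 for cilium genes. Of the 9 measured oocyte genes, 4 (ZP3, FIGLA, NLRP5 and ZAR1) were called lower in old than in young ovaries, and NLRP5 also in old than in middle-aged ovaries. None of the 4 was called without young 2 or without young 3, and 1 was called without middle-aged 2 or without old 1. The NLRP5 call against middle-aged ovaries was lost with centred arrays and when any array other than old 3 was left out. Young 3 read the most ZP3, at 2835, against 46.3 to 1742 in the other 8 ovaries.

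The genes whose values ran most like each member over the 9 ovaries were sought by Pearson r of log2 values. For EHF they were UPK3BL2 (r = 0.994), AGR3 (0.992) and DNAJC12 (0.987). UPK3BL2, a uroplakin-like gene, read 2754 in young 3 and 20.6 to 38.4 elsewhere, and AGR3, a protein disulfide isomerase family member known from ciliated airway cells in mice, read 741 in young 3 and 5.18 to 12.9 elsewhere. Over the 8 ovaries without young 3, the 3 values of r were 0.80, 0.73 and 0.53, though these ovaries were also used to pick the genes. With 1 ovary so far from the rest, such a likeness mainly says that the genes share that ovary.

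For EPCAM the nearest genes were LY6K (r = 0.983), ADGRG2 (0.961), an adhesion receptor of the male excurrent ducts, and SLC6A3 (0.960), the dopamine transporter. LY6K read 35.7, 34.8 and 100.02 in young 1, 2 and 3, then 14.3, 20.1 and 20.7 in the middle-aged ovaries and 13.2, 15.5 and 21.4 in the old ovaries, so that all young ovaries were above the rest, as for EPCAM. Without young 3 the 3 values were 0.95, 0.86 and 0.81, again over ovaries that were used to pick the genes.

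For TEKT1 the nearest genes were CAPSL (r = 0.964, a gene of the cilium list), MUC20 (0.961), a membrane mucin, and DNAJC12 (0.955). MUC20 read 125 in young 3 and 20.1 to 30.6 elsewhere. Without young 3 the values of r for TEKT1 were 0.60, 0.57 and 0.46. For PAX8 the nearest genes were LOC714185 (0.971), NUDT10 (0.944) and LOC701799 (0.936), and for FOXJ1 they were FXYD3 (0.925), PXK (0.894) and CTNND2 (0.885). Without young 3 the values of r were 0.91, 0.86 and 0.85 for PAX8 and 0.80, 0.73 and 0.68 for FOXJ1. All of these ovaries were also used to pick the genes. FXYD3, an epithelial regulator of the sodium pump, read 76.8 in young 3 and 25.8 to 45.6 elsewhere.

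For OVGP1 the nearest genes were LOC722305 (r = 0.977), CACNA1B (0.962), a neuronal calcium channel subunit, and CLCA1 (0.952), a secreted protein of goblet cells. CLCA1 read 7.21, 206 and 9.12 in old 1, 2 and 3, against 6.24 to 7.45 in the younger ovaries. CACNA1B read 31.2, 640 and 83.2 in old 1, 2 and 3, against 32.1 to 63.4 in the younger ovaries. Each of these OVGP1 neighbours was highest in old 2, which follows from picking them by r with a gene that peaks there. Their r without young 3 was 0.96 to 0.98, over ovaries that were used to pick the genes and that include old 2. Their r without old 2 was not computed.

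**Figure D4:**
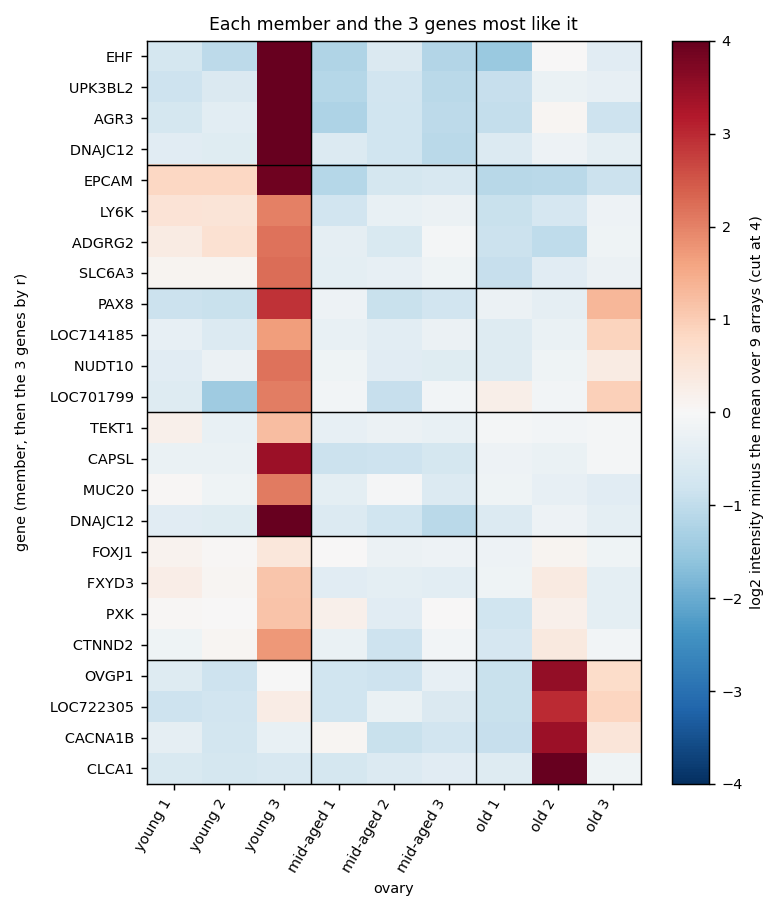
Log2 intensity relative to the mean over the 9 ovaries for each member and the 3 genes most like it by Pearson r, with 1 column per ovary and colours that end at a difference of 4. The EHF, EPCAM, PAX8, TEKT1 and FOXJ1 rows are highest in young 3, and the OVGP1, LOC722305, CACNA1B and CLCA1 rows in old 2.

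Relatives of the members were mostly highest in other ovaries. The tektins TEKT3 and TEKT4 read 7.24 to 9.91 and 40.9 to 61.2 over the 9 ovaries. The ETS factors ELF5 and SPDEF read 5.78 to 14.5 and 102 to 168. FOXJ3 read 699 to 1175. Of the chitinase family to which OVGP1 belongs, CHIT1, a macrophage chitinase, read 100.4, 71.7 and 60.9 in the young ovaries, 89.1, 1234 and 418 in the middle-aged ovaries, and 424, 1483 and 1289 in the old ovaries, and CHI3L1, a chitinase-like protein without enzyme activity, was highest in young 3, at 176, by 1.13-fold over old 3. CHIT1 and OVGP1 both had their highest value in old 2, but CHIT1 was also high in middle-aged 2, where OVGP1 read 28.5. None of the relatives with a probe set was 2-fold above the other arrays in young 3.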

How the data were processed

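Ovarian RNA of 9 monkeys, 3 per age group, was hybridized to 1 array per monkey. Per the labels, the authors labelled the RNA with biotin and made the deposited intensity values with RMA (version not given in the sources used here). The study's methods instead describe LOWESS normalization with dye reversal, and the labels were followed here. Control probe sets (99) were dropped. Log2 values of the remaining 52766 were used with no added scaling or filter. A single gene symbol was annotated for 24956 of them.

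Groups came from the sample labels. limma (version 3.58.1) in R (version 4.3.3) estimated the mean of each age group from the 9 arrays together, with Benjamini-Hochberg adjustment over all probe sets. It was tested on simulated data. Lists were described by counts and medians. The correlation was tested over all pairings with numpy (version 2.4.6), with the ranks for Spearman rho from scipy (version 1.17.1). Precision is limited by the number of arrays, and 3 arrays against 3 cannot give an exact permutation p below 0.1.

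The members and lists were chosen with earlier results of these data known. Named genes are the members, their relatives, list genes called, the 4 most variable genes of 6 lists among genes above the array median on their highest array, and the 3 genes most like each member (SD of at least 0.5 over the arrays). Genes named for an excess in 1 array, and that measure itself, were chosen after the values were seen, as were PIGR, MMP7, CDH1 and MSLN. Alternatives were centring, quantile normalization, brighter probe sets, no fold minimum, the 6 arrays compared, the mean of a gene's probe sets, a replicate block and leaving out each array.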

Additional observations from a re-analysis of the deposited data

How the results depend on the processing

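Over all scaling and probe set alternatives, the log2 differences of the 6 measured genes moved most for EHF, by 1.38 for middle-aged minus young with the mean of its probe sets. Leaving out 1 array moved them by up to 2.501, for EHF without young 3, and some signs changed. Without young 3 the old minus young difference was 0.23 for EHF and 1.12 for PAX8, and the middle-aged minus young one was 0.26 for PAX8 and 0.03 for OVGP1. The PAX8 old minus young difference was also 0.11 without old 1, 0.17 without old 2 and 0.01 with the mean of its probe sets, and FOXJ1 was -0.04 for old minus middle-aged without old 2. For old against young ovaries, 82 probe sets were called, 27 with the 6 arrays compared, 229 with the replicate block, and 4 to 198 when 1 array was left out (4 without young 2, 9 without young 3, 29 without middle-aged 2, 51 without middle-aged 1, 53 without old 1 and 198 without old 2). For old against middle-aged ovaries, 18 were called, 9 with centred arrays, 5 with the 6 arrays compared, 28 with the block, and 1 to 42 when 1 array was left out (4 without young 2, 5 without young 3 or middle-aged 2, 6 without old 1, 1 without middle-aged 3 and 42 without old 3). For middle-aged against young ovaries, 1 was called, and 0 to 1 when 1 array was left out (0 without young 1, 2 or 3 or middle-aged 3). The cause was not tested. The arrays that share a replicate number come from different monkeys. Their deviations correlated above 0.1 in 5 of 9 pairs, against 4 of 18 pairs with unlike numbers. The highest r was 0.41 with the same number (young 3 and middle-aged 3) and 0.25 with unlike numbers. What same-numbered arrays may share was not tested. The labels name no pairing, so the block pairs numbers only. Under it 1 gene of the epithelial and ciliary lists, GRHL1, was called lower in old than in young ovaries (limma adjusted p = 0.018). DSP without middle-aged 3 and EFHC2 without old 3 were also called lower (limma adjusted p = 0.0349 and 0.0236).

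The cilium median without young 3 was 0.0192 for old against young (-0.1258 to 0.0192 without 1 array) and 0.0338 for middle-aged against young (-0.1668 to 0.0338). The correlation of the lists was 0.602 without old 1 and young 3, 0.0983 with brighter genes, 0.80 with means in place of medians, and 0.145 to 0.911 without 1 array, the lowest without young 3. Its exact permutation p was 0.722 without young 3, 0.113 without old 2 and 0.0524, 0.0529 and 0.0558 without middle-aged 1, 2 and 3. At a 4-fold limit in young 3, 5 of 12 secretory, 1 of 45 cilium and 1 of 23 epithelial genes passed, against 0.29% of all genes. Without detection calls, the dim cilium genes limit what can be said of that list.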

Other observations

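Several epithelial or duct genes peaked in old 3, an ovary in which no member was highest. KRT18, a keratin of simple epithelia, read 178 to 306 in the young ovaries, 204 to 477 in the middle-aged ovaries, and 308, 274 and 980 in old 1, 2 and 3. HOXA11, which patterns the Mullerian tract, read 20.9, 20.8 and 46.3 in old 1, 2 and 3, against 15.9 to 19.1 in the 6 younger ovaries. All 7 measured smooth muscle genes were highest in old 3 as well, and their part in these values was not tested.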
